A study of Rattus norvegicus with 22 samples.

Results

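The solute carriers described here are the 147 members of the SLC superfamily that were well expressed over the 22 arrays of a study of 9L tumors and brain in rats. They are the genes with a single symbol beginning with Slc and a number whose brightest probe set, a group of short oligonucleotides read as 1 value, had a mean signal of at least 200 over all arrays, after 9 named carriers had been left out. The 9 left out belong to the Slc1, Slc2, Slc3, Slc7 and Slc16 families, so counts for these families below cover the members only. The array holds 261 SLC genes, read by 337 probe sets, and 106 of these genes lay below that level. The signal is an arbitrary fluorescence unit that ran from 10 to 36564, with array medians of 199 to 215. The members were chosen by these means over all groups, which support nothing below. Slc26a6 (200.4) and Slc7a7 (204.4) were just inside the level, Slc5a11 (189.0) and Slc16a13 (196.0) just outside it. In each of the 4 groups 124 members reached a mean of 200, 19 did so in 2 groups and 4 in 3 groups. The members fall into 39 families. Slc4a1ap, Slc7a6os, Slc9a3r1 and Slc9a3r2 carry an SLC symbol without being carriers, the last pair being scaffold proteins that RefSeq now names Nherf1 and Nherf2.

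All animals were male Fischer rats, 8 weeks old at arrival, that carried a tumor grown from 9L rat glioma cells implanted in the right caudate nucleus. Microbeam radiation therapy (MRT) delivers synchrotron X-rays as parallel microbeams. Here the doses, stated for the depth of the tumor, were 400 Gy in the beams and 18 Gy in the valleys between them. Rats 1 to 5 were left untreated and rats 6 to 11 received MRT 10 days after implantation and were studied 6 h later. Tumor and contralateral brain were micropunched from sections of each rat, giving 5 untreated tumor, 6 MRT tumor, 5 untreated contralateral and 6 MRT contralateral samples. The contralateral brain of every rat, the untreated ones included, therefore came from a tumor-bearing animal, and a tumor punch holds 9L cells together with host cells.

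Solute carriers are membrane proteins that move small molecules without burning ATP themselves, as facilitators, as exchangers, or by coupling to gradients of sodium, protons or other ions. Families share sequence and broadly share substrates. In brain they clear transmitters from synapses and load synaptic vesicles, pass glutamine and lactate between astrocytes and neurons, set neuronal chloride, and gate what enters from blood and cerebrospinal fluid. Tumor cells are known for a changed use of amino acid, nucleoside and glucose carriers.

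Cell type markers and 1 library bear on what follows. All 7 measured neuron markers were lower in untreated tumor than in untreated contralateral brain (median log2 difference −1.11), and their summed signal was 37047 to 69960 against 86667 to 103961. All 4 measured markers of proliferating cells were higher in tumor (median 4.56). Summed markers of choroid plexus and ventricle lining ran from 642 to 32651 within the untreated contralateral group alone. In bulk tissue, fewer cells of a type and less RNA per cell cannot be told apart. The contralateral array of rat 7, labelled MRT, stood apart from the other 5 of its group: its summed neutrophil markers read 216 against 2038 to 4030 in the others and 136 to 173 in untreated brain, and its summed pericyte and fibroblast markers 3420 against 2078 to 2885 and 3250 to 4755. The untreated tumor of rat 5 read 10613 in summed microglia and macrophage markers against 3864 to 4392 in the other untreated tumors. Contralateral results that rest on rat 7 are also given without it.

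MRT changed few carriers in contralateral brain. Of the 147 members 10 (6.8%) passed limma, a moderated linear model of log2 signal, at a false discovery rate of 5% over all 31042 probe sets, against 4.1% of all probe sets and 6.58% of the 9402 genes at the same level. Members rose in 8 cases (background 2.86% of all probe sets and 5.21% of genes at the same level) and fell in 2 (1.24% and 1.37%), and the median log2 fold change was −0.03, beside −0.02 over all probe sets. The share called was close to that of other genes of this level. Membership of Slc15a3 leaned on its own rise after MRT, so its place in the counts of this comparison is a description only. Of the 13 zinc carriers 4 rose, and the others that rose carry peptides (Slc15a3), neutral amino acids (Slc1a5), thiamine (Slc19a2) or an unknown substrate (Slc35e3). No overlap between untreated and MRT rats was seen for 8 members that lay above, among them the mitochondrial carrier Slc25a25, which did not pass, and 1 that lay below. Among all probe sets 2.51% lay above and 1.29% below in this way, and among genes at the same level 4.72% and 1.47%. Without rat 7, 17 members passed, including the same 10, where 6.4% of all probe sets and 9.71% of genes at the same level did. The labelling controls of the contralateral arrays split the rats into 2 sets by the gap between their 5′ and 3′ probe sets, which was −0.55 to −0.80 for rats 1, 5, 9, 10 and 11 and −1.25 to −1.55 for the others on the log2 scale. The tumor arrays do not separate this way, since rat 1 of the first set read −1.46 there and rat 6 of the second −1.31. Within these sets the contralateral log2 fold changes of the 10 kept their sign, from 0.47 to 2.28 in the first set and 0.36 to 1.77 in the second for the 8 that rose. With these smaller groups 14 members passed in the first set (5.68% of all probe sets, 8.35% of genes at the same level) and 1, Slc15a3, in the second (0.809% and 1.68%).

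**Figure D1:**
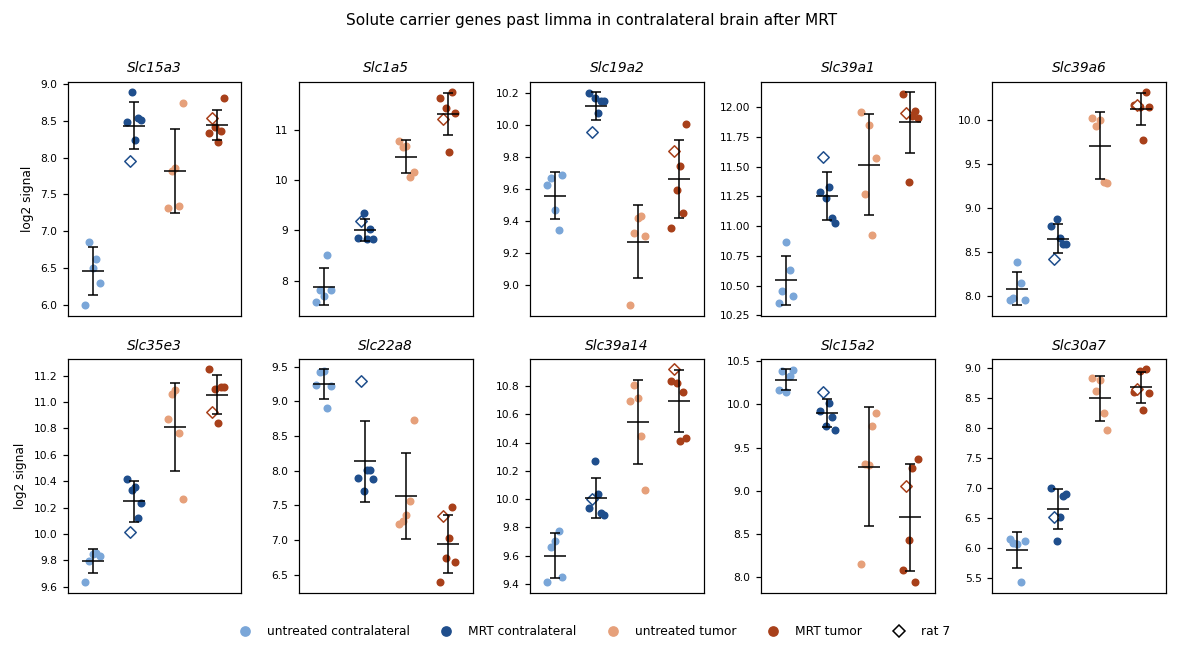
Log2 signal (vertical axes) of the 10 members past limma in contralateral brain, 1 point per rat in the 4 groups, with the group mean and SD as black bars and rat 7 as open diamonds. In the Slc22a8 panel the contralateral sample of rat 7 lies among the untreated samples, and Slc15a3 is at 64 to 116 signal units in untreated contralateral brain against 247 to 473 after MRT.

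Slc15a3, a proton-coupled transporter of peptides and histidine in lysosomes of immune cells, rose most. Its signal was 64, 116, 91, 99 and 79 in untreated contralateral brain of rats 1 to 5, and 247 at the lowest, 360 at the median and 473 at the highest after MRT. Every MRT sample lay above every untreated sample, and the lowest was rat 7. The group means were 89.8 in untreated and 352.3 in MRT contralateral brain, and Slc15a3 became a member through this rise. Its rank and its place among the members that rose are therefore a description only. The rise was 3.92-fold, 1.97 ± 0.17 (SE) on the log2 scale (limma adjusted p = 1.08e-05, n = 5 and 6), and 2.07 ± 0.16 without rat 7. Of 6 measured microglia and macrophage markers, 4 fell in the same comparison and 2, Cd68 (0.61) and Itgam (0.31), rose, while all 3 neutrophil markers rose (median 3.22). The part of these cells in the rise of Slc15a3 was not tested.

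Slc1a5, an exchanger of glutamine and other neutral amino acids at the plasma membrane, read 190, 225, 206, 363 and 226 in untreated contralateral brain and 453, 490 and 646 at the lowest, median and highest after MRT. The groups did not overlap, and rat 4 stood above the other untreated rats. The rise was 2.19-fold (log2 1.13 ± 0.16, limma adjusted p = 0.000727). Slc19a2, a high-affinity thiamine transporter, went from 788, 815, 709, 649 and 823 to 994, 1136 and 1175. That was a 1.47-fold rise without overlap (0.56 ± 0.09, limma adjusted p = 0.00151). Slc19a1, the reduced folate carrier of the same family, had a log2 fold change of −0.21 and did not pass.

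Slc39 was the only family with more than 1 member that rose. Slc39 proteins bring zinc into the cytosol and Slc30 proteins move it out or into organelles. Of 7 Slc39 members 3 rose and 0 fell, and of 6 Slc30 members 1 rose and 0 fell. Slc39a1, a zinc importer of the plasma membrane, read 1310, 1408, 1865, 1589 and 1361 in untreated brain and 2083, 2462 and 3063 after MRT, a 1.64-fold rise without overlap (0.71 ± 0.12, limma adjusted p = 0.00302). Slc39a6, also an importer, went from 248, 253, 335, 285 and 248 to 343, 395 and 469, with rat 7 the lowest and just above the highest untreated rat (0.57 ± 0.11, limma adjusted p = 0.00684). Its 2 dimmer probe sets, at mean signals of 122.1 and 82.7, had log2 fold changes of 0.00 and 0.13 and did not pass, and with the mean of its 3 probe sets the call of Slc39a6 was lost. Slc39a14, which takes up iron as well as zinc and is induced by inflammatory cytokines in liver, read 681, 810, 834, 874 and 697 in untreated brain and 949, 1002 and 1234 after MRT (0.41 ± 0.10, limma adjusted p = 0.0315). The samples did not overlap, but this call was lost in 6 of 11 fits that left out 1 rat, with adjusted p up to 0.0995 (without rat 1), and its dimmer probe set (0.25, mean signal 106.9) did not pass.

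Slc30a7, which loads zinc into the Golgi, was a dim signal in brain: 71, 68, 67, 43 and 69 in untreated rats and 69, 104 and 128 after MRT. The groups overlapped by 1 MRT sample, rat 8, and rat 4 was the low untreated one. The rise of 0.68 ± 0.17 (limma adjusted p = 0.0447) passed by little, and leaving out 1 rat in turn gave adjusted p from 0.0134 (without rat 8) to 0.11 (without rat 11), with the call lost in 9 of 11. It was also lost with low signals raised, with cyclic loess and with centring on Atp5b and Arpc1a. The remaining zinc carriers, among them the synaptic vesicle carrier Slc30a3 (−0.07) and the importers Slc39a10 (−0.15) and Slc39a13 (−0.23), did not pass.

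**Figure D2:**
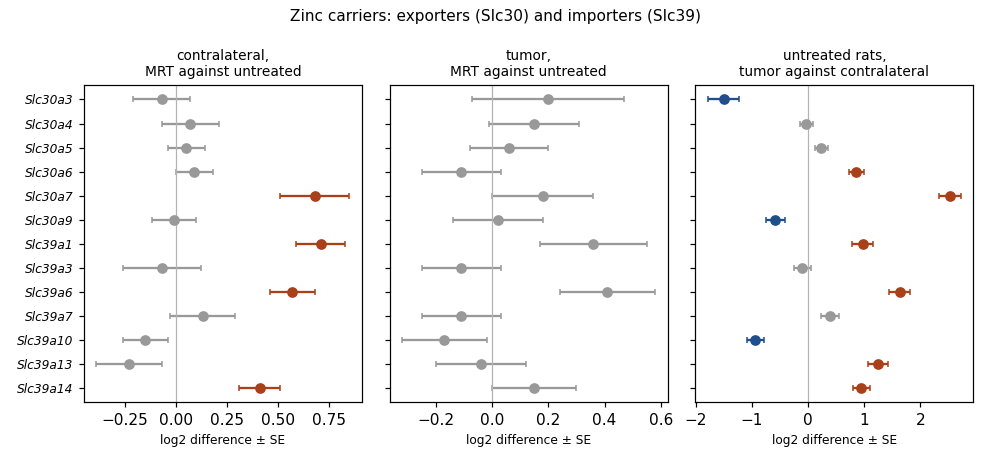
Log2 difference and its SE (horizontal axes) for the 13 zinc carriers in 3 comparisons, with calls by limma in red (higher) or blue (lower) and grey for no call. After MRT 4 rose in contralateral brain and 0 passed in tumor, while 6 were higher and 3 lower in untreated tumor than in untreated contralateral brain.

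The members that moved were set beside their promoters, taken as the 250 bases before the RefSeq start (build GRCr8). Such a window was found for 114 members and for 6 of the 10 called in contralateral brain, namely Slc15a2, Slc19a2, Slc22a8, Slc35e3, Slc39a1 and Slc39a6. Those of both zinc importers, of Slc19a2 and of the carrier that fell most, Slc22a8, are shown because the results above and below turn on these genes, 5′ to 3′ on the strand of the gene, at chr2:178000869-178001118 (plus), chr18:16160164-16160413 (minus), chr13:79134868-79135117 (plus) and chr1:214927034-214927283 (plus), with matches to the motifs searched in capitals.
Slc39a1: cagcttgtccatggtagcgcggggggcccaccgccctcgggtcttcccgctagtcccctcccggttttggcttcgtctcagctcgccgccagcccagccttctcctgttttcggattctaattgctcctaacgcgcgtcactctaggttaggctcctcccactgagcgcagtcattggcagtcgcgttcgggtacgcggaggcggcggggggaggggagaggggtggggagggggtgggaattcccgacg
Slc39a6: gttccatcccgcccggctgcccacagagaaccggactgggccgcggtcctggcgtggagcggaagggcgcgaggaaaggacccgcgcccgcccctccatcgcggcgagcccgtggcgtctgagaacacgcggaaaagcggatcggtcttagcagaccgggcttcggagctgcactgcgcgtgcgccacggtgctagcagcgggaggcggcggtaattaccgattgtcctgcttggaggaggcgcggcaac
Slc19a2: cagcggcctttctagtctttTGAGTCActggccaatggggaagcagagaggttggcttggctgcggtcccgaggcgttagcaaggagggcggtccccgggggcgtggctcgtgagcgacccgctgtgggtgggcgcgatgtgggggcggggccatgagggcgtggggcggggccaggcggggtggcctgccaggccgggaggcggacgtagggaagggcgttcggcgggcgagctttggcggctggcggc
Slc22a8: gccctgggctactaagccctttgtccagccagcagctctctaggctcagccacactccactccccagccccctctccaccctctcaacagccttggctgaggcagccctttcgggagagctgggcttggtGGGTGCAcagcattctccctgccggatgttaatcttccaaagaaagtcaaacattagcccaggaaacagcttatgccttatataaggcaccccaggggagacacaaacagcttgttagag
The motifs were the metal response element core TGCACNC, the AP-1 site TGANTCA, the amino acid response element TGATGCAAT and the core of the interferon response element, read on both strands. The first is in 10.3% of all 33469 promoter windows and in 17 of 114 members (14.9%), and among the called members only in Slc22a8. The AP-1 letters are in 6.34% of windows and in 5 members (4.39%), among the called ones only in Slc19a2. The other two, in 0.161% and 3.41% of windows, are in 0 and 1 members. The windows of Slc39a1 and Slc39a6 hold none of the 4, and the other windows shown hold 1 match each. A match or its absence in this window is a description of the letters only.

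Slc22a8, an organic anion transporter of brain capillaries, choroid plexus and meninges, fell. It read 601, 686, 695, 478 and 598 in untreated contralateral brain and 210, 248 and 630 at the lowest, median and highest after MRT. The value of 630 was rat 7. The other 5 MRT samples lay between 210 and 259, below every untreated sample. The fall was 2.16-fold (−1.11 ± 0.24, limma adjusted p = 0.0161), and −1.34 ± 0.11 (adjusted p = 3.66e-06) without rat 7. With low signals raised to the 25th percentile the call was lost. Among cells of the barrier, 3 of 6 pericyte and fibroblast markers fell in the same comparison (median of all 6 −0.75). Of 6 endothelial markers 1 fell, Cldn5 (−1.16), with a list median of 0.03, and 0 of 6 choroid plexus and ventricle lining markers passed. The part of these cells was not tested.

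Slc15a2, a peptide transporter of astrocytes and choroid plexus, was the other member that fell, from 1150, 1335, 1134, 1284 and 1355 to 835, 950 and 1132 (−0.38 ± 0.10, limma adjusted p = 0.0414). All MRT samples lay below all untreated ones, by 2 signal units at the closest. The call was lost in 9 of 11 fits that left out 1 rat (adjusted p up to 0.12, without rat 2, and 0.00961 without rat 7), and like that of Slc39a14 it was lost when all 4 groups were fitted together. Thus within the Slc15 family a lysosomal member rose and a plasma membrane member fell, while Slc15a4, the closest lysosomal relative, had a log2 fold change of 0.08.

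Slc35e3, an orphan member of the nucleotide sugar family of the Golgi, went from 795, 888, 923, 925 and 910 to 1035, 1249 and 1370 without overlap (0.45 ± 0.09, limma adjusted p = 0.00962). Its dimmer probe set, at a mean signal of 396.9, had a log2 fold change of 0.37 and did not pass, and centring the arrays on Atp5b and Arpc1a ended the call. The other 15 Slc35 members did not pass.

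Leaving out rat 7 added 7 calls to the 10. Slc6a20, a proline carrier, read 899, 981, 773, 523 and 890 in untreated rats and 258, 451 and 807 after MRT, the highest being rat 7, and its log2 fold change was −0.86 ± 0.25 with it (limma adjusted p = 0.0837) and −1.04 ± 0.20 without it (adjusted p = 0.00588). It also passed without rat 4 (−1.02), with array weights, which give less weight to arrays that fit the model poorly (−1.06), with the mean of its probe sets (−0.71) and within the first set of rats (−1.26). Its dimmer probe set fell with all rats included (−0.55 ± 0.14, adjusted p = 0.0357). Slc5a3, which takes up myo-inositol when cells must hold water, read 798, 826, 474, 851 and 784 in untreated rats and 479, 1400 and 1818 after MRT, again with rat 7 the lowest, and went from 0.75 (adjusted p = 0.262) to 1.02 (adjusted p = 0.0017). The others were the glutamine carrier Slc38a5 (−0.64), the scaffold gene Slc9a3r2 (−0.74), the fatty acid carrier Slc27a1 (−0.47), the dicarboxylate carrier Slc13a3 (−0.38) and the copper carrier Slc31a2 (0.48). Slc38a5 passed with array weights (−0.49) and within the first set of rats (−0.38) as well. Rat 7 was singled out after its values had been seen. Next in order by p among the falls came the taurine carrier Slc6a6 (−0.31), Slc22a23 (−0.19) and Slc35f4 (−0.20), with limma adjusted p of 0.324 to 0.395.

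Most carriers gave no call in contralateral brain. Among the transmitter carriers 0 of 9 Slc6, 0 of 3 Slc17 and 0 of 1 Slc32 members passed, and so did 0 of 21 mitochondrial carriers, 0 of 6 cation-chloride cotransporters, 0 of 4 Slc2 members and 0 of 7 Slc7 members. With 4.1% of all probe sets and 6.58% of genes at the same level called, 0 calls in groups this small say little about them. At an unadjusted p under 0.05 there were 20 members. The share of all probe sets at that p was not counted, so the 20 are a description only. Limma recovered 85.1% of simulated 2-fold changes and 47.8% of 1.5-fold changes between the contralateral groups. The simulation changed 200 randomly drawn probe sets of any brightness, with independent noise. The share missed among these members may therefore differ. Vesicular glutamate carrier Slc17a6 varied widely after MRT, with 1376, 2206 and 2910 in rats 6, 7 and 9 and 392 to 430 in rats 8, 10 and 11, against 461 to 986 in untreated rats, and its fold change of 0.42 ± 0.53 did not pass.

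In tumor 1 of 147 members (0.68%) passed after MRT, against 0.918% of all probe sets and 1.51% of genes at the same level (0.593% and 1.1% higher). An unadjusted p under 0.05 was seen for 16, again without a share over all probe sets. The member that passed was Slc16a6, of the monocarboxylate transporter family. Its signal was 211, 267, 247, 260 and 235 in untreated tumors and 284, 359 and 448 after MRT, without overlap, a 1.48-fold rise (0.57 ± 0.12, limma adjusted p = 0.0497). In contralateral brain it read 189 to 276 without and 209 to 268 with MRT (log2 fold change 0.09). The call was lost in 10 of 11 fits that left out 1 rat, with adjusted p from 0.0134 (without rat 7) to 0.13 (without rat 6). In the first and second set of rats, which the tumor controls do not separate, its log2 fold change was 0.79 and 0.39. Slc25a16, a mitochondrial carrier, was the other member without overlap (522 to 606 and 612 to 791) and did not pass (0.24 ± 0.09, adjusted p = 0.38). Among all probe sets 0.989% lay above without overlap in tumor and among genes at the same level 1.58%, while 0 members lay below (0.612% and 0.808%).

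The carriers next in order by p in tumor are given as values. Slc1a5 read 1756, 1604, 1621, 1058 and 1148 in untreated tumors and 1506, 2662 and 3423 after MRT, with rat 9 inside the untreated range (0.85 ± 0.21, limma adjusted p = 0.116). Slc38a5 read 436, 315, 508, 246 and 415 against 157, 205 and 311 (−0.80 ± 0.22, adjusted p = 0.165). Both groups overlapped. Slc6a4, the serotonin transporter, read 1373, 1122, 1140, 783 and 455 against 350, 490 and 1016, the highest being rat 7 (−0.82 ± 0.32, adjusted p = 0.446). The lysosomal nucleoside carrier Slc29a3 (−0.42), Slc25a13 (−0.29), Slc25a20 (−0.20), Slc9a3r2 (−0.24), Slc22a23 (−0.41) and Slc22a8 (−0.69) had negative fold changes, and Slc19a2 (0.39), Slc15a3 (0.62), Slc31a2 (0.33), Slc5a3 (0.88) and Slc39a6 (0.41) positive ones, all with adjusted p of 0.363 or more. With array weights 10 members passed in tumor (5.68% of all probe sets and 7.24% of genes at the same level did). They included Slc1a5, Slc15a3, Slc31a2 and Slc4a7 among the higher and Slc6a4, Slc38a5 and Slc29a3 among the lower. Slc29a3 also passed without rat 7 (−0.55, limma adjusted p = 0.00771), whose tumor read 800 against 438 to 495 in the other MRT tumors. Slc1a5 passed without rat 9 (limma adjusted p = 0.0265) and Slc15a3 without rat 5 (0.0173). Each of these passed in 1 of 11 fits that left out 1 rat.

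**Figure D3:**
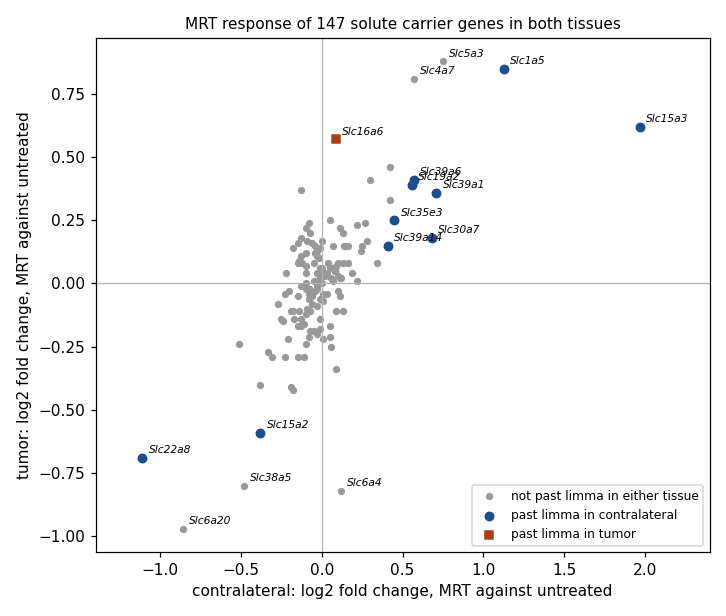
Log2 fold change of MRT against untreated in contralateral brain (horizontal axis) and in tumor (vertical axis), 1 point per member, 147 in all. Blue points passed limma in contralateral brain, the red square (Slc16a6) passed in tumor, and most members lie near 0 on both axes.

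The tissue difference of the response was tested as a contrast over all 22 arrays. It was past the threshold for 1 member (0.68%, against 0.467% of all probe sets and 1.15% of genes at the same level, of which 0.403% and 1.03% lower). An unadjusted p under 0.05 was seen for 3 members, also without a share over all probe sets. The member past the threshold was Slc15a3, whose membership leaned on its contralateral rise. That rise was smaller in tumor by 1.35 ± 0.30 on the log2 scale (limma adjusted p = 0.0412). It read 160, 226, 232, 163 and 428 in untreated tumors, the highest being rat 5, and 295, 334 and 446 after MRT. After MRT the tumor samples lay in the range of the contralateral samples, 247 to 473. The call was lost in 9 of 11 fits without 1 rat, with adjusted p from 0.0185 (without rat 7) to 0.138 (without rat 8). For the other 9 members called in contralateral brain the responses of the tissues were not shown to differ.

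Tumor and contralateral brain differed in most carriers. In untreated rats 104 of 147 members (70.7%) passed, against 51.3% of all probe sets and 66.6% of genes at the same level. Of these, 34 (23.1%) were higher and 70 (47.6%) lower in tumor, where genes at the same level gave 37.8% and 28.8% and all probe sets 22% and 29.3%, and the median log2 difference of all probe sets was −0.12. In MRT rats 109 members passed (74.1%, against 52.4% of all probe sets and 67.6% of genes at the same level), 36 higher and 73 lower, where all probe sets gave 22.3% and 30.1% and genes at the same level 36.8% and 30.8%. Among untreated and among MRT rats alike 98 members passed in the same direction, 31 higher and 67 lower. The share of all probe sets that did so was not counted, so the 98 are a description only. The untreated and MRT rats share no sample, but the members were chosen by the mean over both. The choice of members by their mean over all groups bears on these counts. Of the members 8 reached a mean of 200 in the tumor groups only, Slc6a4, Slc7a7, Slc10a3, Slc12a7, Slc29a1, Slc30a7, Slc38a5 and Slc41a3, and 9 in the contralateral groups only, Slc3a1, Slc6a7, Slc7a3, Slc7a4, Slc8a2, Slc13a3, Slc25a27, Slc26a8 and Slc35f1. These could hardly be members without differing, so their direction between tissues is a description only. The same holds for Slc17a6, with means of 152.4 and 220.7 in untreated and MRT tumor against 718.2 and 1287.3 in brain. It also holds for Slc22a8 (216.8 and 127.7 against 611.6 and 305.0) and for Slc31a2, higher in tumor (226.2 and 286.3 against 154.6 and 208.7). Among the 124 that reached 200 in every group, 24 were higher and 59 lower in untreated rats, and 27 and 62 in MRT rats. No overlap between tumor and brain was seen for 28 members that lay above and 58 that lay below in untreated rats. Among all probe sets the shares were 16.1% and 20.4%, and among genes at the same level 29% and 22.8%. The family counts below stand beside the shares called above, against which no family was tested.

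**Figure D4:**
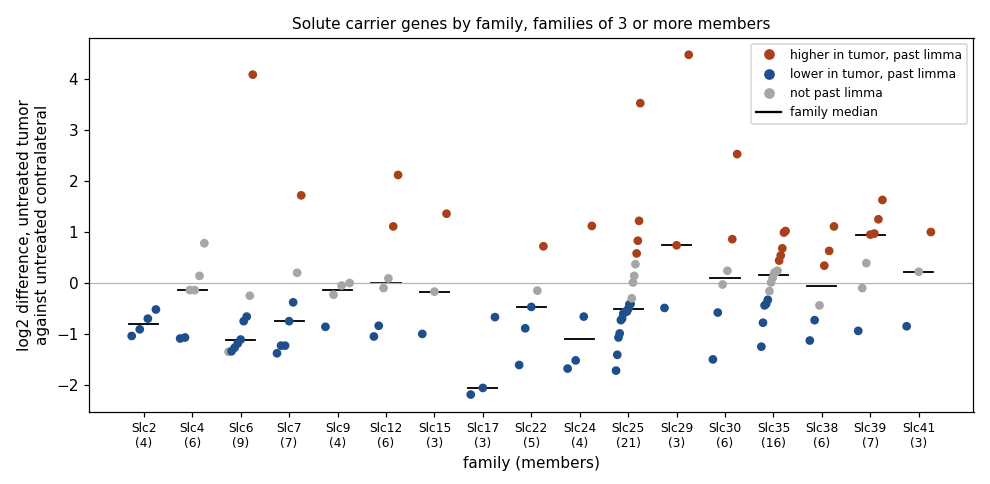
Log2 difference of untreated tumor against untreated contralateral brain (vertical axis) for each member of the families with 3 or more members (horizontal axis), coloured by the limma call, with family medians as black lines. All 4 Slc2 and all 3 Slc17 members are lower in tumor, and 4 of 7 Slc39 members are higher.

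Slc17a6 and Slc17a7, which load glutamate into synaptic vesicles, were lower in tumor, and Slc17a6 became a member through its brain signal. Slc17a6 read 461, 986, 791, 845 and 508 in untreated contralateral brain of rats 1 to 5 and 111, 148, 158, 169 and 176 in their tumors, 4.56-fold lower (log2 −2.19 ± 0.22, limma adjusted p = 1.69e-05, n = 5 and 5). Slc17a7 read 655, 629, 923, 999 and 681 against 194, 104, 159, 149 and 433, with the tumor of rat 5 the highest, 4.17-fold lower (−2.06 ± 0.32, adjusted p = 0.000329). Neither gene overlapped between tissues. The third Slc17 member, the lysosomal sialic acid exporter Slc17a5, was lower by less (−0.67). Slc32a1, which loads GABA and glycine, was lower in untreated tumor (−0.88, adjusted p = 0.0256) and did not pass in MRT rats. Of the 9 Slc6 members 6 were lower, including Slc6a7, a member through its brain signal. Slc6a4, a member through its tumor signal, was higher. Among the lower were the glycine transporter Slc6a9 (−0.75), the creatine transporter Slc6a8 (−0.66) and the vesicle amino acid carrier Slc6a17, which read 8305, 6856, 9020, 8797 and 7498 in brain and 2183, 2815, 3031, 4063 and 4362 in tumor (−1.34 ± 0.18). The neuronal glutamate transporter Slc1a1 was lower as well (2285 to 3085 against 688 to 1639, −1.30 ± 0.20). The 7 neuron markers were lower by a median of 1.11 on the log2 scale in the same arrays, and their part in these differences was not tested.

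The potassium-chloride cotransporter Slc12a5, which keeps neuronal chloride low, was at 12248 to 14764 in brain and 4034 to 10083 in tumor (−1.05 ± 0.20, limma adjusted p = 0.00123). The potassium-dependent sodium-calcium exchangers Slc24a3 (4012 to 6358 against 932 to 2027, −1.68 ± 0.21), Slc24a4 (−1.52) and Slc24a2 (−0.66) and the sodium-calcium exchanger Slc8a2 (−1.13) were lower. Slc24a6, a sodium-calcium exchanger of mitochondria that RefSeq names Slc8b1, was higher (211 to 236 against 379 to 631, log2 1.12). Of the Slc12 family, Slc12a7 (134 to 216 in brain, 606 to 801 in tumor, 4.35-fold, adjusted p = 1.48e-06) and Slc12a4 (1.11), potassium-chloride cotransporters found in many tissues, were higher and Slc12a5 lower, while Slc12a2 and Slc12a9 did not pass. The dimmer probe set of Slc12a7, at a mean signal of 73.1, read a difference of 0.06 and did not pass. Slc8a2 became a member through brain and Slc12a7 through tumor, so their directions are a description only.

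**Figure D5:**
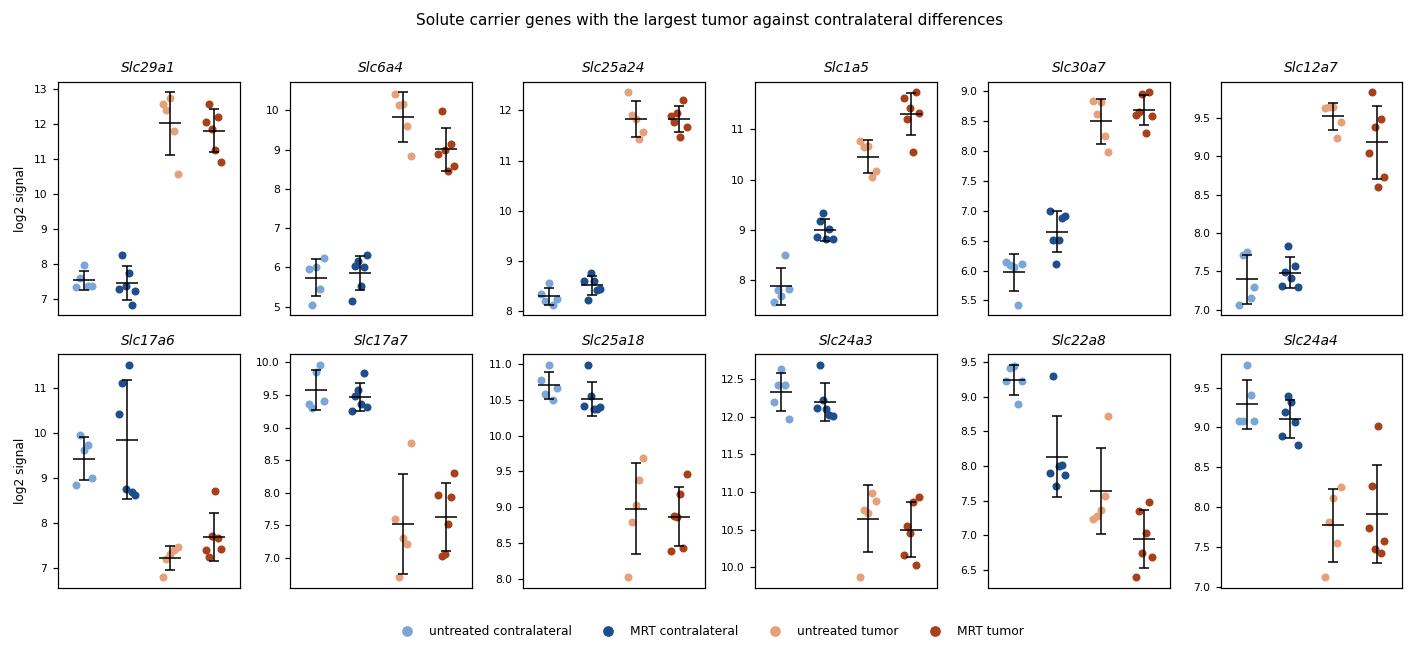
Log2 signal (vertical axes) in the 4 groups, 1 point per rat, with group means and SD as black bars, for the 6 members with the largest higher (upper row) and the 6 with the largest lower (lower row) difference in untreated tumor. In the upper row every tumor sample lies above every contralateral sample of the same treatment.

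The largest differences in the other direction were of Slc29a1, Slc6a4 and Slc25a24, of which the first pair became members through their tumor signal. Slc29a1, the main equilibrative nucleoside transporter, read 163, 195, 255, 167 and 168 in untreated contralateral brain and 6116, 5464, 6953, 3568 and 1520 in the tumors, 22.3-fold higher (log2 4.48 ± 0.36, limma adjusted p = 3.01e-06), with rat 5 the lowest tumor. In MRT rats the difference was 20.4-fold. Its relatives Slc29a3 (0.74) and Slc29a2 (−0.49) differed by less. Slc6a4 read 62, 33, 64, 44 and 75 in brain and 1373, 1122, 1140, 783 and 455 in tumor, 17-fold higher (4.09 ± 0.31, adjusted p = 1.85e-06), in a family of which 6 other members were lower. In MRT rats it was 8.88-fold higher. Slc25a24, which exchanges ATP-magnesium for phosphate across the inner mitochondrial membrane under control of calcium, read 321, 292, 375, 278 and 303 against 5276, 3841, 3624, 2768 and 3044, 11.6-fold higher (3.53 ± 0.16, adjusted p = 6.21e-08). For these genes the lowest tumor lay far above the highest brain sample. Markers of proliferating cells in the same untreated tumors summed to 5800 to 16484, the lowest being rat 5, against 478 to 618 in brain.

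Amino acid carriers among the members split, and Slc1, Slc3 and Slc7 carriers were among the 9 left out. Slc1a5 was 5.98-fold higher in untreated tumor (2.58 ± 0.20, limma adjusted p = 2.21e-06) and 4.96-fold higher in MRT rats. Slc7a7, which forms the light chain of an exchanger of cationic and neutral amino acids, read 72 to 115 in brain and 219 to 363 in tumor (1.72 ± 0.17, adjusted p = 1.41e-05). Slc38a5 (1.11), Slc38a10 (0.63) and Slc38a2 (0.34) were higher and Slc38a1 (−1.13) and Slc38a3 (−0.73), glutamine carriers of neurons and astrocytes, lower. Of the 7 Slc7 symbols 5 were lower, among them Slc7a10, which carries serine and glycine (488 to 736 against 112 to 318, −1.38 ± 0.24), the arginine carrier Slc7a3 (−1.23), Slc7a4 (−1.23), Slc7a8 (−0.75) and Slc7a6os (−0.38), which is no carrier. Slc43a2 (−1.07) was lower. Slc7a3 and Slc7a4 became members through brain, and Slc7a7 and Slc38a5 through tumor. Their directions, and the family counts they enter, are a description only.

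Mitochondrial carriers, the largest family with 21 members, were lower in 13 cases and higher in 4, with a family median of −0.51. Of all probe sets 29.3% were lower and 22% higher, and of genes at the same level 28.8% and 37.8%. Both mitochondrial glutamate carriers were lower. Slc25a18 read 1758, 1524, 2029, 1445 and 1619 against 260, 444, 524, 666 and 824 (−1.72 ± 0.26, limma adjusted p = 0.000283), and Slc25a22 4178 to 6874 against 1717 to 3072 (−1.07). The brain uncoupling protein Slc25a27 read 474 to 525 against 100 to 257 (−1.41 ± 0.22), and its dimmer probe set, at 58.0, −0.07 without a call. Slc25a27 became a member through brain, so its direction is a description only. The aspartate-glutamate carriers went in opposite directions, Slc25a12 lower (−0.56) and Slc25a13 higher (220 to 321 against 467 to 749, 1.22 ± 0.15). The acylcarnitine carrier Slc25a20 (0.58) and Slc25a39 (0.83) were higher. The phosphate carrier Slc25a3 was level at 12721 to 14481 in brain and 12821 to 15064 in tumor (0.01 ± 0.08).

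Zinc carriers also differed between tissues, 6 higher and 3 lower of 13, or 5 and 3 of the 12 that reached a mean of 200 in every group. The shares were 22% and 29.3% of all probe sets and 37.8% and 28.8% of genes at the same level. Slc30a7, the zinc carrier below that mean in brain, was dim there and became a member through tumor. It was 5.78-fold higher in untreated tumor (43 to 71 against 252 to 458, 2.53 ± 0.19, limma adjusted p = 2.28e-06), with Slc30a6 (0.86). Slc39a6 (1.63 ± 0.18), Slc39a13 of the Golgi (636 to 1036 against 1360 to 2294, 1.25 ± 0.18), Slc39a1 (0.97) and Slc39a14 (0.95) were higher. The dimmer probe sets of Slc39a6 (0.24 and −0.15) did not pass. Lower were Slc39a10 (4540 to 5538 against 1894 to 3567, −0.94), Slc30a9 (−0.58) and Slc30a3, which fills synaptic vesicles with zinc (4529 to 6226 against 963 to 3574, −1.50 ± 0.28, adjusted p = 0.0011). Of the other metal carriers, the magnesium carrier Slc41a3 (1) and the copper carriers Slc31a2 (0.55, dimmer probe set −0.23 without a call) and Slc31a1 (0.39) were higher and the magnesium carrier Slc41a1 (−0.85) lower. Slc41a3 became a member through tumor, so its direction is a description only.

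All 4 Slc2 members were lower in tumor, the neuronal glucose transporter Slc2a3 (2156 to 2568 in brain, 1332 to 1606 in tumor, −0.70, limma adjusted p = 0.000136), Slc2a6 (−0.91), Slc2a8 (−0.52) and the myo-inositol carrier Slc2a13 (−1.04). Also lower were the monocarboxylate transporter of neurons Slc16a7 (−1.30), the citrate carrier Slc13a5 (558 to 814 against 236 to 346, −1.30, adjusted p = 2.99e-05), the dicarboxylate carrier Slc13a3 (320 to 423 against 68 to 266, −1.41), the fatty acid carriers Slc27a1 (−0.86) and Slc27a4 (−0.39) and the sugar phosphate carriers Slc37a1 (−0.82) and Slc37a4 (−0.41). Slc5a3 read 474 to 851 in untreated brain and 532 to 840 in untreated tumor and did not pass. Some Slc2 carriers were among the 9 left out. Slc13a3 became a member through its brain signal, so its direction is a description only.

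Slc22a8 and Slc15a2, carriers found in choroid plexus among other places, were lower, and Slc22a8 became a member through its brain signal. Slc22a8 read 478 to 695 in untreated contralateral brain and 151, 155, 165, 190 and 423 in untreated tumor, 3.05-fold lower (−1.61 ± 0.26, limma adjusted p = 0.000405). Slc15a2 was 2-fold lower (−1 ± 0.27, adjusted p = 0.00901). Of the 6 choroid plexus and ventricle lining markers 2 were lower and 0 higher in the same comparison (median −1.1), with sums of 622 to 27997 in untreated tumors against 642 to 32651 in brain, and 5 were lower in MRT rats. Their part was not tested. Slc22a17, a receptor for the iron-binding protein lipocalin, was lower (−0.89), and Slc22a15 (0.72) higher. Slc6a20 (−1.35, adjusted p = 0.0583) did not pass in untreated rats, where the tumor of rat 5 read 1690 and the others 140 to 254, and it was lower in MRT rats (−1.46, adjusted p = 0.0113). The bicarbonate carriers Slc4a3 (−1.09) and Slc4a4 (1179 to 2238 against 501 to 1587, −1.07) were lower, and 4 further Slc4 symbols did not pass.

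Nucleotide sugar carriers of the endoplasmic reticulum and Golgi were evenly split, 5 higher and 5 lower of 16. All probe sets gave 22% higher and 29.3% lower, and genes at the same level 37.8% and 28.8%. Higher were Slc35e3 (1.02, its dimmer probe set 0.11 without a call), Slc35b1 (1746 to 2363 against 3038 to 4904, 0.99 ± 0.14), the CMP-sialic acid carrier Slc35a1 (0.68), Slc35b3 (0.54) and Slc35f5 (0.44). Slc35f4 (−1.25) and Slc35f1 (−0.78), whose substrates are not settled, led the lower ones. Slc10a3, an orphan of the bile acid carrier family, was higher in tumor (90 to 126 against 263 to 489, 1.75 ± 0.19). Its relative Slc10a4 did not pass (−0.01). Slc35f1 became a member through brain and Slc10a3 through tumor, so their directions are a description only.

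Partner proteins of carriers, a list of 18 that holds the chaperones Bsg, Emb and Nptn, subunits of the sodium pump, kinases of cation-chloride transport and others, were all measured. After MRT 0 of 18 passed in contralateral brain and 0 in tumor (median log2 fold changes −0.07 and −0.14). Of all probe sets 4.1% and 0.918% passed there, so 0 calls in a list this small say little. In untreated rats 4 were higher and 9 lower in tumor (median −0.62), and in MRT rats 3 and 11. Of all probe sets 51.3% passed in untreated and 52.4% in MRT rats, and of genes at the same level 66.6% and 67.6%. The list was not tested against these shares.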

How the data were processed

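RNA from 22 samples was hybridised to Affymetrix Rat Genome 230 2.0 arrays. The authors summarised probes by robust multi-array averaging (RMA) in Affymetrix Expression Console and deposited linear signal intensities, 1 per probe set, as whole numbers and without detection flags. RMA pulls arrays to 1 distribution and flattens low signals, so folds of dim genes are understated. Control probe sets (57) were left out, the values were put on a log2 scale, and limma 3.58.1 in R 4.3.3 was fitted to the remaining 31042 with Benjamini-Hochberg adjustment and a threshold of 5%. Each comparison used the arrays of its groups, and the tissue difference of the response used all 22. Replicates within a group were separate rats. The main fits between tissues and of the tissue difference did not pair both tissues of a rat. Counts with the rat as a block are given at the end. The study ran 2 experimental sessions, which the labels do not assign. The members and gene lists were chosen with earlier results of these data known. Named genes were those past limma after MRT, the 12 largest differences each way between tissues, the brightest of each large family and the next by p. Some results are not reported here. Other members are named as examples of their family and were picked after their values were seen. On simulated data 74.6% of 2-fold changes were recovered in tumor and 74.6% between tissues in untreated rats. The simulation changed 200 of 31042 probe sets, whereas 51.3% of them passed between untreated tissues. The adjusted p depends on the share changed, so recovery between tissues may differ from this figure. Of the members 143 matched RefSeq by symbol and 4 by synonym, and promoters came from RefSeq (GRCr8). Tumor and brain of a rat share its number. Residuals of the same rat correlated with a median of 0.312 (0.097 to 0.649, 11 pairs). Python 3.11.15 drew the figures.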

Additional observations from a re-analysis of the deposited data

Results flagged for a closer look

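Samples far from the rest of their group were sought in groups of 5 and 6 rats, as a gap to the nearest sample too large a share of the group's range. This was met in 29 of 200 groups of named genes (14.5%), and the values follow on the log2 scale. The cutoff is set for about 1 in 20 groups of independent, normally spread samples. These groups reuse the same arrays, the genes were named by their results, and the share over all probe sets was not counted. The 14.5% is therefore a description only.

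The MRT contralateral sample of rat 7 accounted for 8 of the 29. It was high for Slc13a3 (8.96), the lipocalin receptor Slc22a17 (14.13), Slc22a8 (9.3), Slc24a3 (12.69), Slc25a18 (10.98), Slc38a5 (7.74) and Slc9a3r2 (9.21) and low for Slc5a3 (8.9). The tumor of this rat was high for Slc26a6 (8.01), Slc29a3 (9.64) and Slc9a3r2 (8.52) and low for the phosphate carrier Slc25a3 (13.59).

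In untreated contralateral brain, rat 3 was high for Slc22a17 (14.14), Slc38a5 (7.87) and Slc7a10 (9.52) and low for Slc5a3 (8.89). Rat 4 was high for Slc1a5 (8.5) and low for Slc30a7 (5.43), and rat 1 was low for Slc35e3 (9.63). In MRT contralateral brain rat 6 was high for Slc35f4 (9.61). Of these, Slc1a5, Slc30a7 and Slc35e3 passed limma after MRT.

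In untreated tumor, rat 5 was high for Slc22a8 (8.72) and Slc6a20 (10.72), rat 1 low for Slc19a2 (8.87) and Slc24a3 (9.86) and high for Slc7a6os (9.99), and rat 3 high for Slc9a3r2 (8.52). In MRT tumor, rat 9 was high for Slc17a6 (8.72) and low for Slc39a6 (9.78), and rat 8 was low for Slc39a1 (11.38).

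The MRT response of Slc15a3 differed between tissues by −1.35 on the log2 scale, tumor minus contralateral, in the fit over all arrays.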

How the results depend on the processing

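The number of arrays and the flattening of dim signals by RMA limit these results, and contrasts among 5 and 6 rats miss many changes of 1.5-fold. The call counts in contralateral brain after MRT (10) became 6 at a false discovery rate of 1%, 5 with a change of at least 1.5-fold, 17 with array weights and 1 within the second of 2 sets of rats, split by the labelling controls of the contralateral arrays. In tumor (1) the count was 0 at 1%, 0 at 1.5-fold, 0 with low signals raised to the 25th percentile, 0 with only probe sets of a mean signal of 200 or more tested, 0 with trend and robust variances, 0 with cyclic loess, 0 within each set of rats (which the tumor controls do not separate) and 0 with the set as a block, 2 with all 4 groups in 1 fit and 10 with array weights. For the tissue difference of the response (1) it was 0 at 1%, 0 with low signals raised and 0 when centred on Atp5b and Arpc1a. Leaving out 1 rat gave 7 (without rat 1) to 17 (without rat 7) in contralateral brain, 0 to 2 in tumor (2 without rat 7), 93 to 110 between untreated tissues, 99 to 111 between MRT tissues and 0 to 1 for the tissue difference. With the rat as a replicate block, pairing both tissues of each animal, the counts were 108 in untreated rats, 113 in MRT rats and 1 for the tissue difference, where Slc15a3 kept −1.35. Beyond the main fits, shares over all probe sets were counted only for some settings, given above. They are the contralateral fits without rat 7 and within each set of rats, and array weights in tumor. The other counts here are a description only. The causes of these shifts were not tested.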
